A study of Mus musculus with 2 samples.

Results

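Wnt target and feedback genes are genes that Wnt signalling switches on, many of which act back on the pathway. The list was set by gene symbol, with no threshold on measured values but with earlier results of these data known, and held 10 genes: Wnt8a, Dkk1, Nkd1, Sp5, Axin2, Lef1, Tcf7, Znrf3, Rnf43 and Lgr5. Of these, 9 were measured, by 11 of the 44397 array features, among 22485 named genes. Nkd1 and Axin2 had 2 features each and the other 7 genes 1 each, and Tcf7 was not analysed here. Mouse embryonic stem (ES) cells of the wild-type line V6.5 and of a Utx knockout (Utx KO, also labelled V6.5) were compared before and after retinoic acid (RA). In each line, untreated cells were grown on gelatin with leukaemia inhibitory factor (LIF), and treated cells had LIF taken away and 100 nM RA added for 48 h, so RA and the loss of LIF cannot be told apart. Both RNAs of a line shared 1 two-colour Agilent array, untreated RNA in Cy3 and RA-treated RNA in Cy5, with no dye swap among the 2 arrays. The sources used here do not say whether the knockout was 1 clone or how many cultures were grown.

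A gene therefore had 1 value per line, a log2 ratio in which treated RNA is set over untreated RNA. That direction is the likely one, from the dyes in the labels. There are no replicates within a line, so a ratio of 1 line, or a difference between lines, carries no test. The 2 ratios of a gene were tested together against 0 with limma, and "rose" and "fell" below mean a Benjamini-Hochberg adjusted p under 0.05 over all genes in that fit. The error after ± is the moderated SE from limma (n = 2 arrays). Where a gene had several features (5751 genes with 2 to 9), the SD between them had a median of 0.14 on each array, which gives a technical scale only. The feature of Kdm6a, the gene of Utx, had ratios of -0.39 and -0.16, which compare conditions within a line and do not check the knockout.

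Wnt proteins are secreted ligands that bind Frizzled and Lrp receptors and keep beta-catenin from being degraded. Beta-catenin then joins the DNA-binding factors Tcf7, Lef1 and their relatives and switches on target genes, several of which encode brakes on the pathway. In mouse ES cells Wnt signalling helps to maintain self-renewal, and in the embryo it acts in the primitive streak and in the patterning of the trunk, where RA also acts. Wnt8a has the synonym Stra11 in the gene table, a name given to genes stimulated by RA.

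RefSeq promoter windows (assembly GRCm38.p6) run from 250 bases before to 50 bases after a gene start. Here 10 windows were used, from 6 of the 9 measured genes: Axin2, Dkk1, Lef1, Nkd1, Rnf43 and Sp5. Wnt8a, Znrf3 and Lgr5 were not searched, and the member windows, unlike those of all genes, were filtered by chromosome. The 10 windows were searched on both strands for the TCF/LEF core in 4 forms, CTTTG followed by AT, AA, TT or TA. RA response elements of the DR5, DR2 and DR1 kinds were searched for as well. The windows of Dkk1 and Nkd1, which rose, and of Sp5, whose ratios had opposite signs in the 2 lines, are shown from 5′ to 3′ on the strand of the gene, with matches in capitals. The Dkk1 window lies at chr19:30549447-30549746 on the minus strand, that of Nkd1 at chr8:88527383-88527682 and that of Sp5 at chr2:70474673-70474972, both on the plus strand.
Dkk1: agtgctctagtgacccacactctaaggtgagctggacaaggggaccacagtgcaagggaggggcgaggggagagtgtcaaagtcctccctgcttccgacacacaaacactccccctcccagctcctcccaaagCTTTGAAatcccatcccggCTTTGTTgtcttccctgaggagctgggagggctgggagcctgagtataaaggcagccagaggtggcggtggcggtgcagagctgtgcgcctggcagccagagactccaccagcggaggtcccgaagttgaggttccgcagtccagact
Nkd1: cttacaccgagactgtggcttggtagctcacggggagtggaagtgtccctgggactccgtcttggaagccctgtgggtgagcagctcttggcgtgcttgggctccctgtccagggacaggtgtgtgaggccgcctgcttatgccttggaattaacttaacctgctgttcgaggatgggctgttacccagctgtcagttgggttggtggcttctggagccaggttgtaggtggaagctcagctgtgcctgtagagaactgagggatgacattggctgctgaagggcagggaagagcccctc
Sp5: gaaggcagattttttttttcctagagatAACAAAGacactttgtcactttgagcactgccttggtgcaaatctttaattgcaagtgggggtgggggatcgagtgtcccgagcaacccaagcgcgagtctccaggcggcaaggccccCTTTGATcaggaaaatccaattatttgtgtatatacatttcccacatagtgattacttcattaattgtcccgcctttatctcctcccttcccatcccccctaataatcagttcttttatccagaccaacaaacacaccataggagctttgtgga

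In the Dkk1 window CTTTGAA began 117 bases and CTTTGTT 98 bases before the gene start. In the Sp5 window CTTTGAT began 104 bases before the start, and the reverse complement of CTTTGTT, read as AACAAAG, began 222 bases before it. Nkd1 had no match of any searched form in its window, and neither had Axin2 or Rnf43. Of the 4 Lef1 windows, 1 held a match, to the reverse strand of CTTTGTA. Some of those 4 overlap, so the 10 windows are not independent. At least 1 form of the core was present in 3 of the 10 windows and in 16.9% of all 32851 windows, and no DR element was present in the 10, against 0.588% of all. By form, CTTTGAT was in 3.73% of all windows, CTTTGAA in 5.14%, CTTTGTT in 5.85% and CTTTGTA in 3.63%. These matches describe letters in a short window and say nothing of binding.

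The secreted members, the ligand Wnt8a and the antagonist Dkk1, rose. Wnt8a had a log2 ratio of 1.01 in V6.5 and 0.96 in Utx KO, or 2.02-fold and 1.95-fold higher after RA. The 2 lines lay 0.053 apart, and the mean was 0.99 ± 0.074 with an adjusted p of 0.0110 in limma. Wnt8a had the highest mean of the 9 genes and ranked 551st from the top of 22485 genes in V6.5 and 703rd in Utx KO. These ranks would count from the bottom if the likely direction were turned.

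Dkk1 binds the Lrp co-receptors and keeps Wnt ligands from signalling through them. Its ratio was 0.99 in V6.5, 1.98-fold higher after RA, and 0.54 in Utx KO, 1.45-fold higher. Both arrays were above 0, with V6.5 the higher, and the mean was 0.76 ± 0.13 (adjusted p of 0.0376 in limma). The ratio in Utx KO was 0.45 below that in V6.5, the 806th lowest difference of all genes.

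Nkd1, a cytoplasmic inhibitor that binds Dishevelled, rose, with gene ratios of 0.57 and 0.52 and a mean of 0.55 ± 0.074 (adjusted p of 0.0238 in limma). Its 2 features, which carry the same transcript accession, did not give the same value. The first had 0.88 in V6.5 and 1.00 in Utx KO, and the second had 0.26 and 0.039. The gene value thus lies between a feature near 2-fold and a feature near no change. Taken as single features in limma, the first passed (adjusted p of 0.0119) and the second did not (adjusted p of 0.343). The SD between them was 0.43 in V6.5, above that of 90.7% of genes with 2 to 9 features, and 0.68 in Utx KO, above that of 97.2%.

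Axin2, a scaffold of the complex that degrades beta-catenin and a widely used readout of Wnt signalling, did not pass. Its gene ratios were 0.15 in V6.5 and -0.057 in Utx KO, with a mean of 0.045 ± 0.089 (adjusted p of 0.766 in limma). In V6.5 its features had 0.15 and 0.14. In Utx KO they had -0.24 and 0.12, on either side of 0. All 4 values lay within 0.24 of no change.

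Among the transcription factors, Sp5 and Lef1 had ratios that lay far apart in the 2 lines, and neither passed the shared test. Sp5, a zinc finger factor that can repress other Wnt targets, had a ratio of 0.38 in V6.5, 1.30-fold higher after RA, and -1.46 in Utx KO, 2.76-fold lower. The lines lay on opposite sides of 0, the mean was -0.54 ± 0.47 and the adjusted p was 0.479 in limma. Lef1, a DNA-binding partner of beta-catenin, had -0.66 in V6.5, 1.57-fold lower after RA, and 0.0074 in Utx KO. Its ratio was thus below 0 in V6.5 and at 0 in Utx KO, with a mean of -0.32 ± 0.18 and an adjusted p of 0.294 in limma.

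The remaining members act on the turnover of Wnt receptors at the cell surface. Znrf3 and Rnf43 are membrane ubiquitin ligases that remove Frizzled receptors, and Lgr5 is a receptor for R-spondins, ligands that hold these ligases back. Znrf3 fell, with ratios of -0.53 in V6.5 and -0.57 in Utx KO, or 1.44-fold and 1.48-fold lower. The lines lay 0.039 apart, and the mean was -0.55 ± 0.073 (adjusted p of 0.0233 in limma). Its paralog Rnf43 had 0.12 and 0.47, both above 0, and did not pass (mean of 0.30 ± 0.11, adjusted p of 0.159 in limma). Lgr5 had 0.18 and 0.55 and did not pass either (mean of 0.36 ± 0.12, adjusted p of 0.119 in limma). Both Rnf43 and Lgr5 had the higher ratio in Utx KO, by 0.35 and 0.37.

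**Figure D1:**
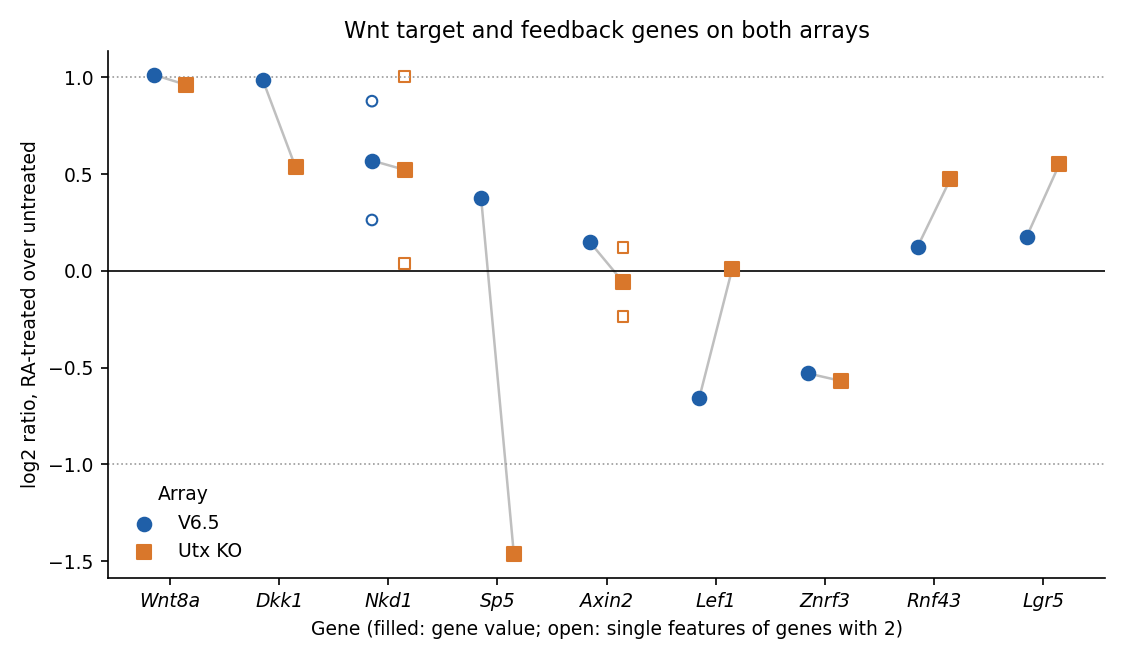
Log2 ratio, RA-treated over untreated (vertical axis), of the 9 measured genes on the V6.5 array (circles) and the Utx KO array (squares), with 1 array per line. Filled symbols are gene values, joined by a grey line, open symbols are the features of Nkd1 and Axin2, and dotted lines mark 2-fold. Wnt8a and Znrf3 were nearly level between the lines, while Sp5 went from 0.38 to -1.46.

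In all, 3 of 9 genes rose (Wnt8a, Dkk1 and Nkd1) and 1 fell (Znrf3), with 4 up and 1 down at an unadjusted p under 0.05 in limma. Of all genes tested, 8.93% rose and 7.93% fell, and 16.8% were up and 17.9% down unadjusted. The shares of the list were 33.3% and 11.1%, a description of 9 genes that carries no test. The median ratio of the list was 0.18 in V6.5 and 0.47 in Utx KO, against -0.019 and -0.020 for all genes. On both arrays 5 genes were above 0, 1 was below 0 on both, and 3 (Sp5, Axin2 and Lef1) differed in sign, a share of 33.3% against 24.4% of all genes.

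On each array 1 of the 9 members reached 2-fold. In V6.5, Wnt8a was the 1 gene at least 2-fold higher, with Dkk1 just short of it, and 0 were 2-fold lower, where 2.52% and 1.59% of all genes were. In Utx KO, 0 were 2-fold higher and 1, Sp5, was 2-fold lower, against 2.92% and 1.65% of all genes. The 4 genes that passed the shared test had means from 1.46-fold to 1.98-fold. Tested against a change of 1.5-fold with limma's treat, 0 members passed in either direction, with 1 up and 0 down at an unadjusted p under 0.05. Because both arrays had the same dye orientation, a dye bias would remain in these means.

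The comparison of the lines asks whether the response differs without Utx, and it was led by Sp5. The Sp5 ratio in Utx KO was 1.84 below that in V6.5, or 3.58-fold, the 6th lowest difference among 22485 genes. It was the 1 member with a difference of at least 2-fold, and 0 were 2-fold above, where 0.467% of all genes were 2-fold below and 0.583% above. Sp5 rests on 1 feature and 1 array per line, and the difference was not tested. A dye bias that is alike on the arrays cancels in a difference of ratios.

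The next differences were those of Lef1, 0.66 higher in Utx KO and ranked 409th from the top, and Dkk1, 0.45 lower. Of the 9 genes, 7 differed by less than 0.5 between the lines, as did most of all 22485 genes. Among all genes Dkk1 had the 806th lowest difference and Lgr5, at 0.37, the 1371st highest. Of the members that passed the shared test, Wnt8a, Nkd1 and Znrf3 differed by at most 0.053, and Dkk1 was 0.45 lower in Utx KO. That test takes the line difference as its error, so it favours genes in which this difference is small. For scale, the SD between features of 1 gene in this difference had a median of 0.11 and a 95th percentile of 0.37. That spread is technical and does not stand for the spread between cultures. The features of Nkd1 differed between the lines by 0.13 and -0.22, and those of Axin2 by -0.39 and -0.020. The list had 3 genes with the higher ratio in Utx KO and 6 with the lower, with a median difference of -0.048 against 0.0031 for all genes.

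**Figure D2:**
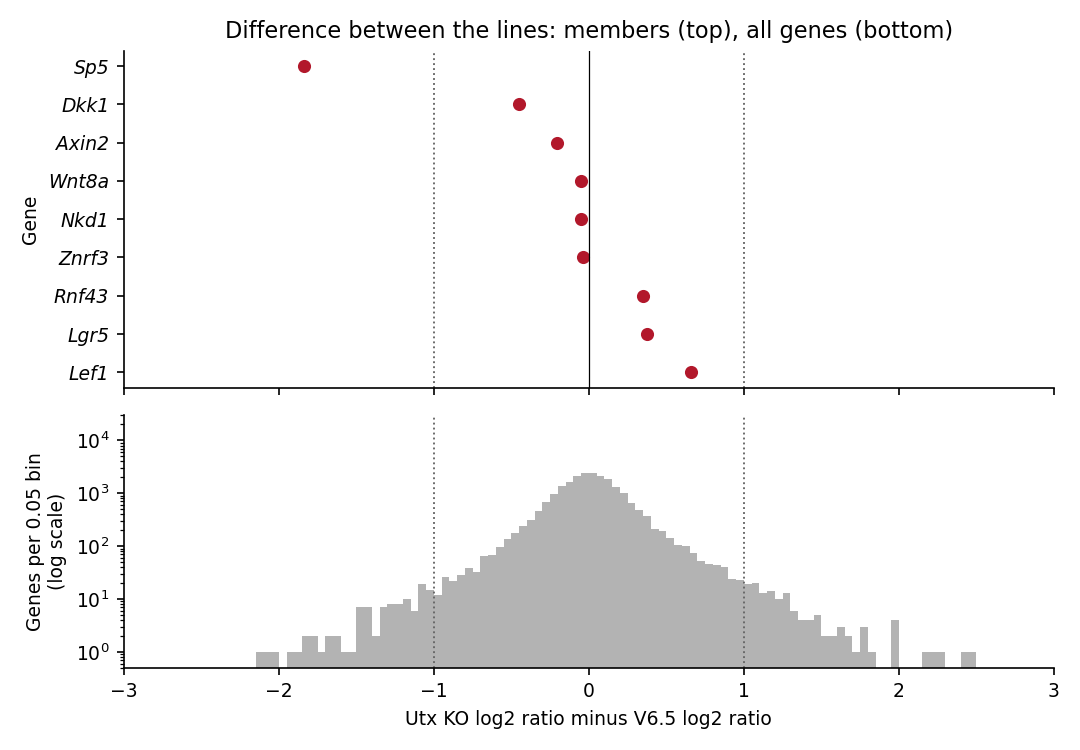
Utx KO log2 ratio minus V6.5 log2 ratio, with the 9 measured genes by name in the top panel and the number of all 22485 genes per bin of 0.05 on a log scale in the bottom panel. Dotted lines mark a difference of 2-fold. Sp5, at -1.84, stands alone below the lower line, and the other 8 genes lie between the lines.

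The rest of the pathway was read from 8 lists of other Wnt genes, ordered by role, with 118 genes measured. Of these 20 rose and 18 fell, 16.9% and 15.3% against 8.93% and 7.93% of all genes, with median ratios of 0.032 in V6.5 and 0.024 in Utx KO. In the list named for lipidation and secretion of Wnt ligands such as Wnt8a, Porcn and Wls rose. Porcn, which attaches a lipid to the ligands, rose by 1.57 ± 0.12 (1.75 in V6.5 and 1.39 in Utx KO). Wls, which carries them to the surface, rose by 1.84 ± 0.17 (1.54 and 2.13). These were 2 of 3 genes in that list, with 0 down by either adjusted or unadjusted p in limma. The other gene, Notum, had -0.034 in V6.5 and 0.45 in Utx KO and did not pass. Of 18 ligands other than Wnt8a, 3 rose (Wnt9a, Wnt4 and Wnt3) and 1 fell, Wnt5a, with -1.47 and -1.80. Wnt9a had 1.27 and 1.35, Wnt4 0.67 and 0.75, and Wnt3 0.59 and 0.36.

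The Wnt receptors and co-receptors, Frizzled and others, moved both ways, with 5 of 16 genes up and 3 down. Fzd6 rose by 1.10 ± 0.076 and Fzd2 by 0.98 ± 0.11, and Fzd5 fell to -1.22 ± 0.11. Of 6 R-spondins and other Lgr genes, which go with Lgr5, 2 rose and 1 fell: Rspo1 (0.83 and 0.75) and Rspo4 (0.40 and 0.56) were up, and Rspo2 (-0.85 and -1.14) was down. Of 19 inhibitors other than Dkk1, 3 rose and 3 fell. The secreted Frizzled-related proteins split, with Sfrp5 at 1.44 and 2.42 and Sfrp2 at 0.44 and 0.88 among those that rose, and Sfrp4 at -1.62 and -1.91 and Sfrp1 at -0.62 and -1.19 among those that fell.

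Of 23 cytoplasmic transducers, the group Axin2 and Nkd1 work in, 0 rose and 4 fell (Dact2, Csnk1e, Apc and Csnk1a1), with 6 up and 6 down at an unadjusted p under 0.05 in limma. Dact2, which acts on Dishevelled, had -0.69 and -0.93. Of 15 nuclear genes of the pathway, 1 rose, Tle6 (0.99 and 0.77), and 1 fell, the co-repressor Tle3 (-0.61 and -0.91). Of 18 other Wnt targets 4 rose and 5 fell. By the mean of both arrays, the homeobox gene Cdx1 led those that rose, with 1.94 and 1.23, and the cyclin Ccnd1 those that fell, with -1.04 and -1.69, although Mycn was lower in V6.5 (-1.41). Other target genes of the pathway thus moved both ways, as the 9 genes did.

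**Figure D3:**
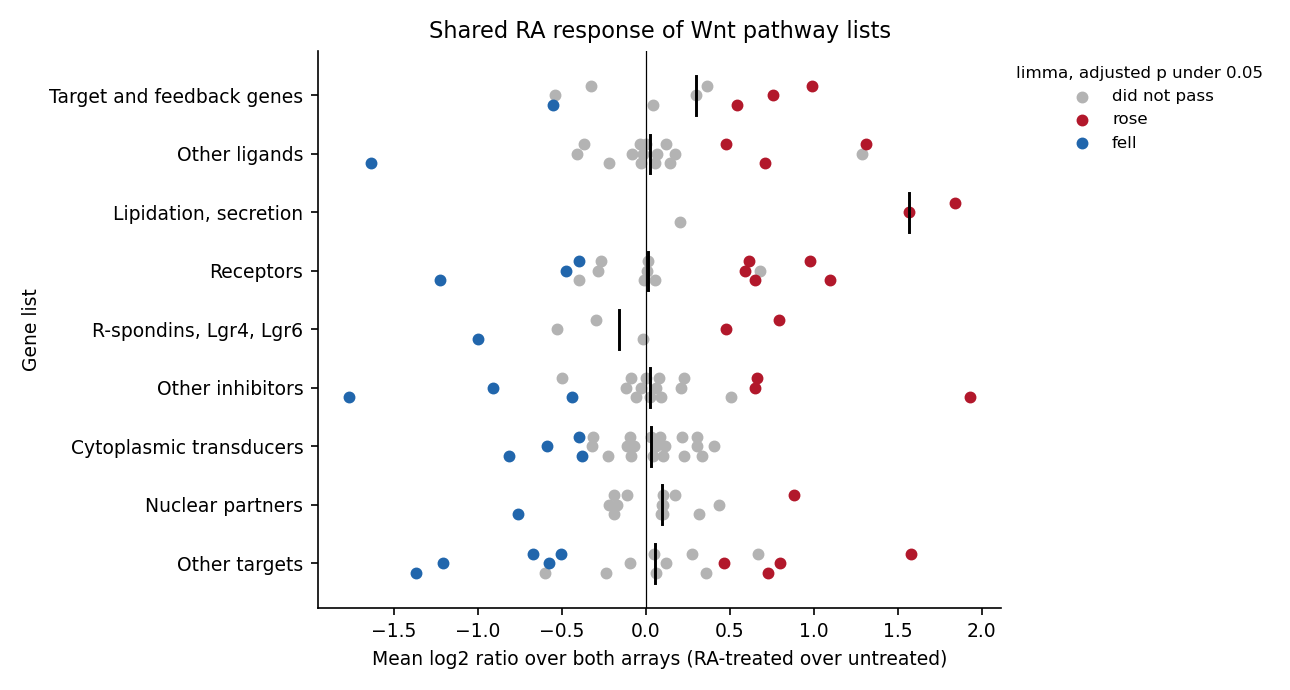
Mean log2 ratio over both arrays (horizontal axis) of each measured gene, by list (vertical axis), with genes that rose in red, genes that fell in blue and genes that did not pass limma in grey. Points are spread in height for clarity, and black bars are list medians. The 9 target and feedback genes have a median of 0.30 and span -0.55 to 0.99, and each list has genes on both sides of 0 apart from the list of lipidation and secretion.

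**Figure D4:**
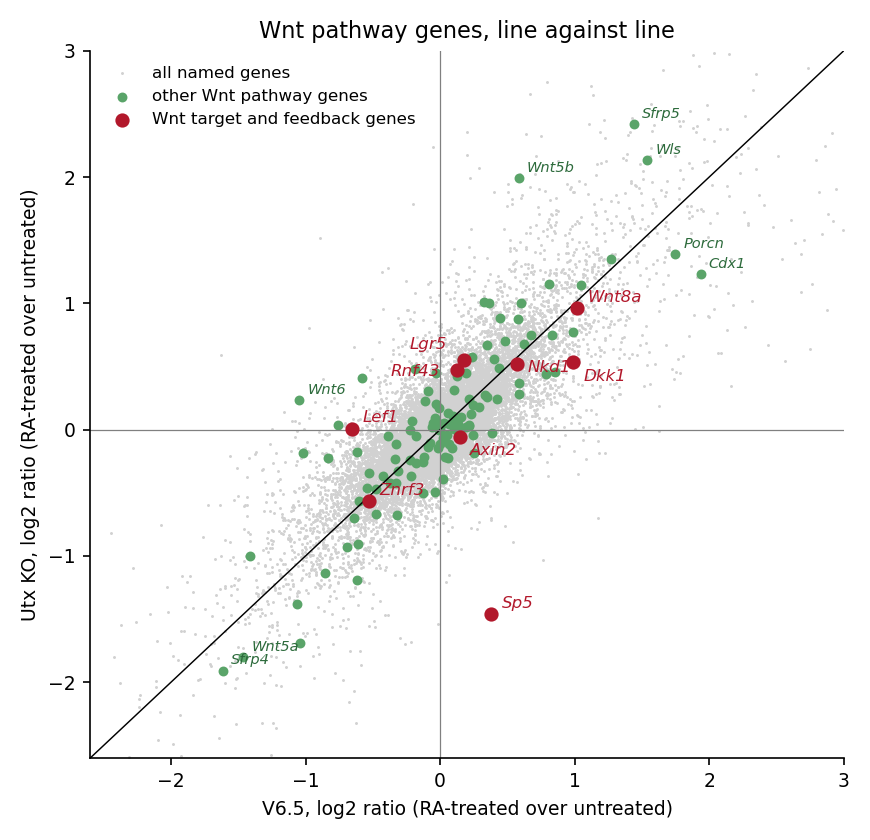
V6.5 log2 ratio (horizontal axis) against Utx KO log2 ratio (vertical axis) of all named genes in grey, other Wnt pathway genes in green and the 9 target and feedback genes in red, with the line of equal ratios. The axes run from -2.6 to 3 and leave out 80 genes. Sp5 lies far below the line, and the ligands Wnt5b and Wnt6 lie above it.

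Markers of the cell types in which these genes are active were set beside them. As only ratios were used, the level of a marker is unknown and the ES cell label could not be checked from levels. The counts below are to be read against the shares of all genes given above, 8.93% up and 7.93% down after adjustment and 16.8% and 17.9% without it. Of 8 ES cell markers 0 rose and 2 fell, Pou5f1 (-0.94 and -1.58) and Klf4 (-1.65 and -2.44), with 0 up and 6 down at an unadjusted p under 0.05 in limma. Of 7 primitive streak markers, 1 rose (Wnt3, also a ligand above) and 1 fell (Tbx6, also in the list of targets), with ratios from -0.48 to 0.59 in V6.5 and from -0.67 to 0.54 in Utx KO. Of 8 endoderm markers, the tissue in which Dkk1 is active in the early embryo, 0 rose and 1 fell, Hhex (-0.36 and -0.35), with 2 up and 1 down at an unadjusted p under 0.05 in limma. Of 6 neural markers 3 rose (Irx3, Neurog2 and Zic1) and 0 fell, with 3 up and 1 down unadjusted in limma. Sox1, Pax6 and Nes did not pass, and Nes had -0.86 in V6.5 and -0.19 in Utx KO. Of 6 trophoblast markers 2 rose (Gata3 and Tfap2c) and 0 fell, with 3 up and 0 down unadjusted in limma. Cdx2, Eomes, Elf5 and Hand1 did not pass. Untreated cells were grown on gelatin, so the name of the fibroblast feeder list does not show that feeder cells were present. Of its 8 markers 7 fell and 0 rose, with the same counts at an unadjusted p under 0.05 in limma. Their ratios ran from -1.95 to -0.19 in V6.5 and from -2.63 to -0.082 in Utx KO. In a bulk RNA, fewer cells of a type and less RNA per cell cannot be told apart, and the part of these markers in the ratios of the Wnt genes was not tested.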

How the data were processed

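RNA was measured on 2 dual-colour Agilent arrays, 1 per line. The deposited values were taken as log2 ratios of the channels. The submitters' processing notes name limma, with no version or role. The sources used here do not give the background correction, the within-array normalization or the genome build. The deposited values of each array have a mean of 0 within rounding and medians of -0.031 and -0.035, and which step set that mean is unknown. Log base 2 and the direction are inferred, from the range of -3.71 to 5.86 and from the dyes. Spot intensities were not used here, so signal over background is unknown, and precision is limited by the number of arrays. Across genes, which are not independent, the arrays had r = 0.837.

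The platform annotation gave 1 symbol to 33026 features, several to 0 and none to 11371, and RefSeq (GRCm38.p6) held the gene numbers of 21964 genes. A gene's value is the mean over its features. The shared response was an intercept over both arrays (limma 3.58.1, R 4.3.3, lmFit and eBayes, two-sided, Benjamini-Hochberg over all genes, threshold 0.05), with 1 residual and 2.98 prior degrees of freedom, and was tested on simulated data. It reflects the spread between 2 arrays, line differences included, and not between cultures. Alternatives were the median over features, centring on medians, robust eBayes, treat, single features, a threshold of 0.10, a fold of 1.5, a scaled Utx KO array and each array alone. The members, lists and settings were chosen with earlier results of these data known. All 9 measured members are named. From each other list, names were taken from genes past the threshold (at most 6, by size) or 2-fold apart between lines. Not all such genes are named in the text, so an unnamed gene may have passed. Some genes that did not pass are named beside them. Tables were made with Python 3.11.15, numpy 2.4.6 and pandas 2.3.3, and figures with matplotlib 3.10.9. A planned protein comparison of paralogs was not run.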

Additional observations from a re-analysis of the deposited data

Results flagged for a closer look

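Some genes whose ratio was above 0 in 1 line and below 0 in the other were listed for a closer look, and none of these differences was tested. Among the Wnt target and feedback genes they were Sp5, with a Utx KO minus V6.5 difference of -1.84, Axin2, with -0.20, and Lef1, with 0.66. Of the other Wnt genes, Wnt6 alone was listed, with a difference of 1.28. It was not alone in having opposite signs. They were also found in further ligands (8 of 18 with Wnt6), 6 of 19 inhibitors, 6 of 23 transducers and 2 of 18 other targets. The signs of Axin2 and Lef1 rest on Utx KO ratios of -0.057 and 0.0074, close to 0. Of all genes, 24.4% had ratios of opposite sign.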

How the results depend on the processing

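The 3 members that rose and the 1 that fell numbered the same with arrays centred on their medians, robust eBayes and a scaled Utx KO array. Their number also held with single features (at least 1 feature of the gene passing). A threshold of 0.10 could only add members, and added none. The members have 1 or 2 features each, so the median over features equals the mean and could not change their values. Against 1.5-fold with limma's treat, 0 rose and 0 fell, with 1 up and 0 down at an unadjusted p under 0.05. Over the settings other than treat and the arrays alone, the 5 members that did not pass still did not pass. Of all genes, 2009 rose and 1784 fell, against 196 and 97 with treat and 3144 and 3155 at a threshold of 0.10. With arrays centred on their medians, 2 members in place of 1 were 2-fold higher in V6.5, since Dkk1 then passed. At 1.5-fold, 2 were higher and 1 lower in V6.5, 1 was higher in Utx KO, and 1, Lef1, differed between the lines upward. Sp5 was at least 2-fold below in Utx KO and in the difference under each setting tried. Each array alone gives the ratios stated in the report, with no test. No paired analysis was possible because each line has 1 array. Depth does not apply to arrays, and signal over background is unknown.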

Other observations

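Among the other Wnt ligands, 2 of 18 had a ratio at least 2-fold higher in Utx KO than in V6.5. Wnt5b had 0.58 in V6.5 and 1.99 in Utx KO, a difference of 1.41. Wnt5b did not pass the shared test (mean of 1.29 ± 0.36, adjusted p of 0.0898 in limma). Its relative Wnt5a, a ligand that mostly signals without beta-catenin, fell, and was 2.77-fold lower in V6.5 and 3.49-fold lower in Utx KO. Wnt6 had -1.05 in V6.5 and 0.23 in Utx KO and did not pass (adjusted p of 0.451 in limma). Each rests on 1 feature. Of the 118 other Wnt genes, 2 were 2-fold above and 0 were 2-fold below in the difference between the lines, so Sp5 was the 1 Wnt gene among all 9 lists that lay 2-fold below.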
